A study of Mus musculus with 9 samples.

Results

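The transcripts examined were those of 9 genes that mark T cells and cytotoxic lymphocytes, namely Cd3d, Cd3e, Cd3g, Cd4, Cd8a, Cd8b1, Nkg7, Gzma and Gzmb. They were taken by gene symbol, and all 9 were found among the 24008 genes listed in a count table of mouse liver RNA. The liver came from 3 groups of 3 mice, all with nonalcoholic steatohepatitis (NASH) induced by a high fat/high carbohydrate diet. The Flox group, which the sample labels call WT, held control mice, and F4MKO mice lacked IRF4 in skeletal muscle. The F4MKO + FSTL1 group was F4MKO mice whose gastrocnemius had been injected with an AAV8 vector in which the muscle MCK promoter drives Flag-tagged FSTL1. By the study's methods the other two groups received a GFP vector, which the labels do not name. Both the deletion and the transgene were directed to muscle, so that the level of either gene in liver does not check the labels, and the labels give neither the age of the mice nor the promoter of the Cre. The tissue was whole liver, and hepatocyte markers summed to between 71879 and 109109 normalized counts (CPM, counts scaled to a common library size) in every library.

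CD3 proteins carry the signal of the T cell receptor into the cell, and Cd3d, Cd3e and Cd3g encode their delta, epsilon and gamma chains. CD4 and CD8 are coreceptors that bind MHC class II and MHC class I molecules and divide T cells into helper and cytotoxic lineages, although CD4 is also made by some dendritic cells and macrophages. Granzymes A and B are serine proteases that cytotoxic T cells and natural killer (NK) cells release from granules to kill target cells, and NKG7 is a membrane protein of those granules. In steatohepatitis, lymphocytes of these kinds enter the liver together with myeloid cells. In a whole-tissue library a lower level can come from fewer such cells or from less RNA in each cell, and these cannot be told apart here.

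The 3 CD3 genes lie side by side on chromosome 9 of GRCm38 (mm10), with Cd3g at chr9:44969572-44980431, Cd3d at chr9:44981786-44987339 and Cd3e at chr9:44998740-45009627. Cd3d and Cd3g are transcribed away from each other from starts 1355 bases apart. Cd8b1 and Cd8a are also neighbours, at chr6:71322788-71337494 and chr6:71373427-71379173, and Cd4 lies farther along the same chromosome. Promoter windows of 300 bases, from 250 bases before the start, were found in RefSeq (GRCm38.p6) for 7 of the 9 genes, and those of Cd4 and Cd8b1 were not found. Short letter strings that stand for factors known in lymphocytes were searched on both strands. The RUNX core TGTGGT was present in the windows of Gzma, Gzmb and Nkg7 and in 16.8% of all 32851 promoter windows of the same length, and it was absent from those of Cd3d, Cd3e, Cd3g and Cd8a. The 3 granule genes are therefore shown with that string or its reverse complement in capitals, 5′ to 3′ on the strand of the gene. That string was picked from those searched by where it matched, so the display is no test of a difference between genes. The match began 50 bases before the start in Gzma, 83 in Nkg7 and both 93 and 34 in Gzmb.
Gzma, chr13:113100932-113101231, minus strand: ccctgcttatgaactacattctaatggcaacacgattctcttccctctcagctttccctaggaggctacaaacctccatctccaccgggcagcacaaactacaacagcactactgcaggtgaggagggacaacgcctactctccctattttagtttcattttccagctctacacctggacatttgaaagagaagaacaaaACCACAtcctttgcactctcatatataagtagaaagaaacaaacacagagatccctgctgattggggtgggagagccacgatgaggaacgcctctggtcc
Gzmb, chr14:56262285-56262584, minus strand: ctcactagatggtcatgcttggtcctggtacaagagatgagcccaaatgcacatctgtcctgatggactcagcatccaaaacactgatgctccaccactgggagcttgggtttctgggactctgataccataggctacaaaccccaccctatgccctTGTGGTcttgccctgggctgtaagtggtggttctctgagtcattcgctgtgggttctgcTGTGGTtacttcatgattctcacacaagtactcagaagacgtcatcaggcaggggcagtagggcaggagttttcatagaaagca
Nkg7, chr7:43436888-43437187, plus strand: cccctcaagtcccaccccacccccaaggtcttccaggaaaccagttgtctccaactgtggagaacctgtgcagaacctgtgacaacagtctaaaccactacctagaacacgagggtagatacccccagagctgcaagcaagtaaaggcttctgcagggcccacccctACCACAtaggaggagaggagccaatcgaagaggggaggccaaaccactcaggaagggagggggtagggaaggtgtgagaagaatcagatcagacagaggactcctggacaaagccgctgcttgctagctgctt
For comparison, the window of Cd3d, a receptor gene, holds none.
Cd3d, chr9:44981536-44981835, plus strand: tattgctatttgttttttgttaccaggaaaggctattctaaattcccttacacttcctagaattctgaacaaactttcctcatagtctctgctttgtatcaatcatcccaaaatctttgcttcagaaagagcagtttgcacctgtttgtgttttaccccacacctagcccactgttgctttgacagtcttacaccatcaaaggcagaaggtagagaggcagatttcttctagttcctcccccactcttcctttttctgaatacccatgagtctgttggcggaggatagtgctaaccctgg
The T-box string TCACAC was found in 2 of the 7 windows, those of Gzmb and Nkg7, and in 14.5% of all windows. The ETS string CAGGAAG was found in Cd3e and Nkg7 (13.3% of all windows), and the GATA string AGATAA in Cd3g alone (11.2%). The IRF string AANNGAAA was found in Cd3g, Cd8a and Gzma (23.9% of all windows) and the NFAT string GGAAAA in Gzma alone (23.4%), where it overlaps the IRF string. The E-box string CANNTG was in all 7 windows and in 72.3% of all windows, while TATAAA (13.6%) and TGACGTCA (1.79%) were in none of the 7. These are matches of letters in a fixed window, and binding was not measured.

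All 9 genes were low. The total count per library was 20656976 at the lowest and 24322984 at the highest, and the 9 genes together took between 72 and 301 of these reads. The largest count of any of the 9 in any library was 66, for Cd4, and that of Cd3e was 18. Counts in the 3 Flox libraries summed to 204, 152 and 131. They summed to 301, 152 and 238 in F4MKO and to 72, 108 and 221 in F4MKO + FSTL1. The lowest and second lowest sums were thus both from F4MKO + FSTL1, but the remaining library of that group was above every Flox library. On the CPM scale the sums were 7.05 ± 1.79 in Flox, 8.84 ± 2.22 in F4MKO and 6.70 ± 4.29 in F4MKO + FSTL1 (SD, n = 3 mice), so that the spread within groups was as large as the distance between them.

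Levels of different genes were compared per kilobase of the longest annotated transcript, over all 9 libraries. Nkg7 was highest at 1.53 ± 0.69 CPM per kilobase (SD, n = 9), followed by Gzma at 1.12 ± 0.96 and Gzmb at 0.627 ± 0.277. Cd3g (0.389 ± 0.116), Cd8b1 (0.384 ± 0.203), Cd8a (0.327 ± 0.173), Cd4 (0.288 ± 0.187) and Cd3d (0.255 ± 0.076) followed, and Cd3e was lowest at 0.108 ± 0.080. The granule genes thus stood above the receptor and coreceptor genes by their means, but neighbours in this order differed by less than the larger SD of the pair, except Cd3d and Cd3e, whose means were farther apart than either SD.

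**Figure D1:**
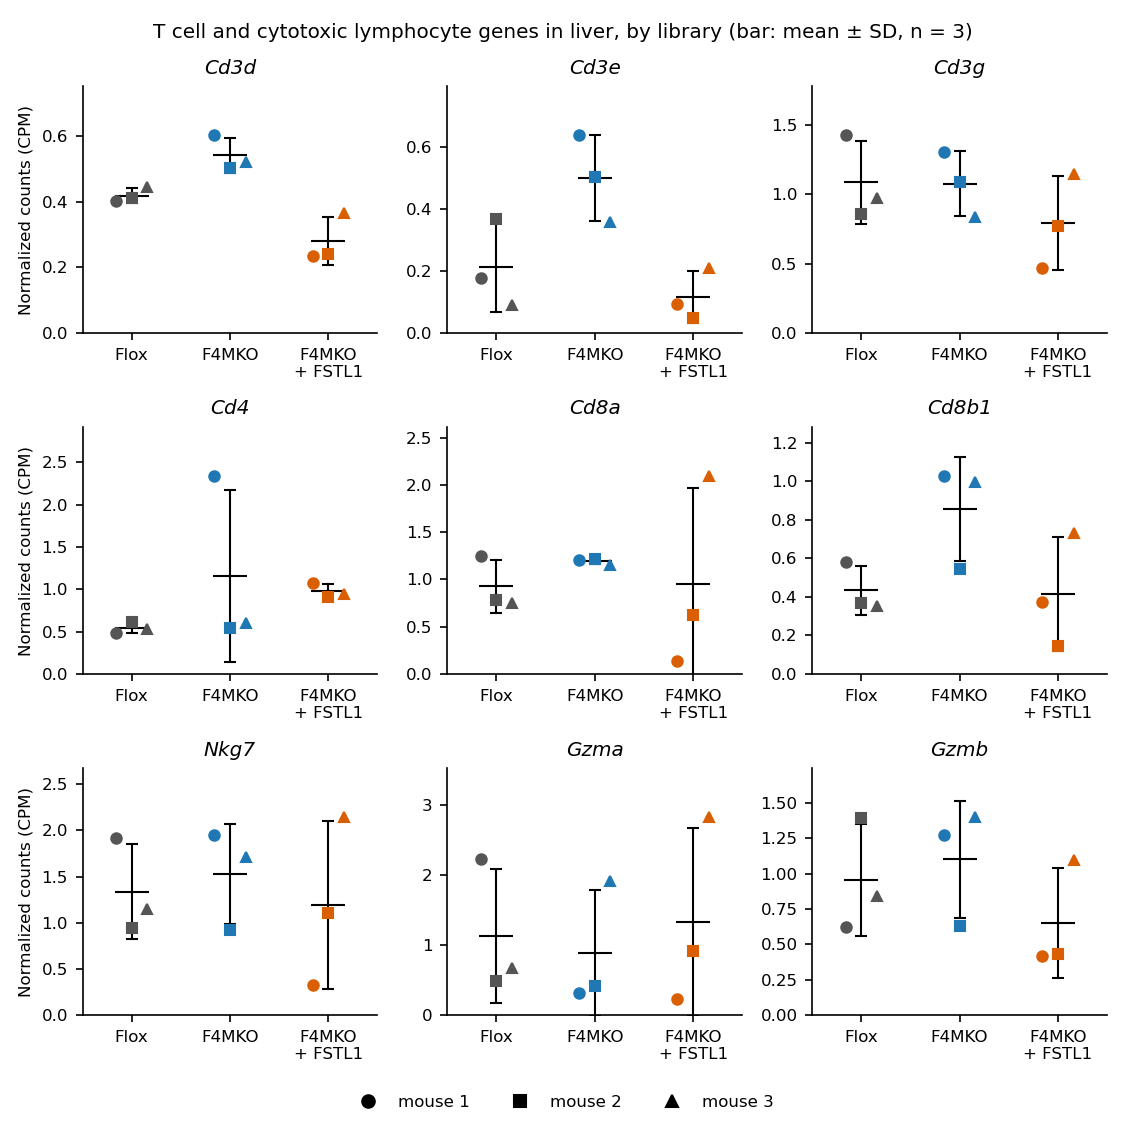
Normalized counts (CPM, linear axis from 0) of the 9 genes in each of the 9 liver libraries, with 1 point per mouse and a bar for the group mean ± SD (n = 3), drawn down to 0 at most. Cd3d runs from 0.401 to 0.444 in Flox, 0.503 to 0.601 in F4MKO and 0.234 to 0.366 in F4MKO + FSTL1, whereas the coreceptor and granule genes overlap between groups apart from Cd4 in F4MKO + FSTL1 against Flox.

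Cd3d, the delta chain, was the only tested gene of the 9 whose 3 groups did not overlap at all. Its counts were 9, 10 and 10 in Flox, 17, 12 and 13 in F4MKO and 5, 5 and 7 in F4MKO + FSTL1. On the CPM scale these were 0.401, 0.410 and 0.444 in Flox, 0.601, 0.503 and 0.519 in F4MKO, and 0.234, 0.240 and 0.366 in F4MKO + FSTL1. All F4MKO libraries were thus above all Flox libraries, and all F4MKO + FSTL1 libraries below both. Of all tested genes, 11.7% were separated in the same direction in F4MKO against Flox. The shares were 21.1% in F4MKO + FSTL1 against F4MKO and 10.7% against Flox. The share separated in all 3 comparisons at once was not counted. The numbers of reads are small, and a count of 5 has an exact 95% Poisson interval of 1.62 to 11.7, which covers counting error only. The log2 fold change was -0.95 ± 0.34 (SE) in F4MKO + FSTL1 against F4MKO, with an adjusted p of 0.0689, and did not pass the threshold. It was 0.37 ± 0.31 in F4MKO against Flox (adjusted p = 0.589) and -0.58 ± 0.36 in F4MKO + FSTL1 against Flox (adjusted p = 0.600). With libraries scaled by their totals in place of TMM factors, Cd3d was called lower in F4MKO + FSTL1 than in F4MKO (log2 fold change -1.15, adjusted p = 0.0390), under a scaling that moved the median log2 fold change of all genes to -0.18.

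Cd3e, the epsilon chain, had too few reads to pass the filter on low counts, so 8 of the 9 genes were tested. Its counts were 4, 9 and 2 in Flox, 18, 12 and 9 in F4MKO and 2, 1 and 4 in F4MKO + FSTL1. Every F4MKO library was above every F4MKO + FSTL1 library, and Flox overlapped with both. Groups were separated in that direction for 21.1% of all tested genes, which do not include Cd3e. In a fit of all 24008 genes without the filter its log2 fold change was -2.08 ± 0.63 in F4MKO + FSTL1 against F4MKO (95% interval -3.37 to -0.79), and the adjusted p was 0.0241, which passed the threshold. In that fit 9.98% of all genes were called, and 7.65% of all genes were lower in F4MKO + FSTL1. DESeq2 gave -2.11 with an adjusted p of 0.0589, and the unfiltered edgeR fit made the call in 6 of the 9 fits with a library left out, but not without F4MKO mouse 1, F4MKO + FSTL1 mouse 1 or F4MKO + FSTL1 mouse 2. By reads alone, 7 counts against 39 are a ratio of 0.226 at equal depth, with an exact 95% counting interval of 0.0852 to 0.511. The difference of F4MKO from Flox was 1.20 ± 0.55 (adjusted p = 0.337) and that of F4MKO + FSTL1 from Flox was -0.88 ± 0.72 (adjusted p = 0.795). Of the exonic bases of Cd3e, 3.31% are shared with the gene model Gm48719, and reads from there cannot be assigned where strand was not used.

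Cd3g, the gamma chain, had the most reads of the 3 CD3 genes. Its CPM were 1.43, 0.860 and 0.976 in Flox, 1.31, 1.09 and 0.838 in F4MKO and 0.467, 0.769 and 1.15 in F4MKO + FSTL1. The lowest library of all was F4MKO + FSTL1 mouse 1, but mouse 3 of that group lay among the Flox and F4MKO libraries. The log2 fold change was -0.45 ± 0.36 in F4MKO + FSTL1 against F4MKO (adjusted p = 0.395) and -0.46 ± 0.36 against Flox (adjusted p = 0.664). Between F4MKO and Flox the means were 1.08 and 1.09 CPM, and the 95% interval of the log2 difference was -0.75 to 0.74. The 3 genes that encode partners of the same complex thus shared the direction of the F4MKO + FSTL1 against F4MKO difference, and none of the 2 that were tested passed the threshold.

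Cd4, the helper lineage coreceptor, differed from the other genes in its pattern. Its CPM were 0.490, 0.615 and 0.532 in Flox, 2.33, 0.544 and 0.599 in F4MKO and 1.07, 0.913 and 0.940 in F4MKO + FSTL1. The mean of F4MKO was set by mouse 1, with 66 counts against 13 and 15 in the other two, while the 3 F4MKO + FSTL1 libraries were close together and all above Flox. The log2 fold change of F4MKO + FSTL1 against Flox was 0.83 ± 0.54, with a 95% interval of -0.36 to 2.02 and an adjusted p of 0.577. F4MKO against Flox gave 1.10 ± 0.52 (adjusted p = 0.313) with all libraries and 0.07 without F4MKO mouse 1. F4MKO + FSTL1 against F4MKO gave -0.27 ± 0.49 (adjusted p = 0.730) with all libraries and 0.76 without that mouse, so that the direction of this difference rested on a single library. The same library had the lowest summed hepatocyte markers (71879 CPM) and the highest summed cholangiocyte markers (430 CPM) of the 9. Its summed dendritic cell (37.7 CPM) and pan-leukocyte markers (168 CPM) were also the highest, but its macrophage markers (689 CPM) were below those of Flox mouse 3 (881 CPM). The part of these markers in the Cd4 level was not tested.

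Cd8a and Cd8b1 encode the 2 chains of CD8. The CPM of Cd8a were 1.25, 0.778 and 0.754 in Flox, 1.20, 1.21 and 1.16 in F4MKO and 0.140, 0.625 and 2.09 in F4MKO + FSTL1. The F4MKO libraries had an SD of only 0.030 CPM, whereas the F4MKO + FSTL1 group held both the lowest and the highest library of the series, at 3 and 40 reads. The log2 fold change of F4MKO + FSTL1 against F4MKO was -0.35 ± 0.59 (adjusted p = 0.709). The CPM of Cd8b1 were 0.580, 0.369 and 0.355 in Flox, 1.03, 0.544 and 0.998 in F4MKO and 0.374, 0.144 and 0.731 in F4MKO + FSTL1. Again mouse 3 was the highest of the F4MKO + FSTL1 group, and its level lay between those of the F4MKO libraries. The log2 fold change of Cd8b1 was -1.06 ± 0.48 in F4MKO + FSTL1 against F4MKO (adjusted p = 0.137) and 0.98 ± 0.46 in F4MKO against Flox (adjusted p = 0.313). F4MKO + FSTL1 mouse 3 decided the calls of both genes. Without it, the log2 fold change against F4MKO was -1.63 for Cd8a (adjusted p = 0.0455) and -1.70 for Cd8b1 (adjusted p = 0.0443), and both passed the threshold. Cd3e then passed the filter and was called too (-2.73, adjusted p = 0.0285), which made 3 called genes of the 9, beside 13.8% of all genes tested in that fit.

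Because CD8 needs both chains in most T cells but can also form from the alpha chain alone, the ratio of their counts was taken in each library. Cd8a reads per Cd8b1 read were 2.15, 2.11 and 2.13 in Flox, 1.17, 2.23 and 1.16 in F4MKO and 0.375, 4.33 and 2.86 in F4MKO + FSTL1. The 3 Flox values were nearly equal, and the F4MKO + FSTL1 values rest on as few as 3 reads of a gene. Cd8a reads per Cd4 read were 2.55, 1.27 and 1.42 in Flox, 0.515, 2.23 and 1.93 in F4MKO and 0.130, 0.684 and 2.22 in F4MKO + FSTL1. These ratios overlapped between all groups.

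Nkg7 and the granzyme genes varied more between mice than between groups. The CPM of Nkg7 were 1.92, 0.942 and 1.15 in Flox, 1.95, 0.921 and 1.72 in F4MKO and 0.327, 1.11 and 2.14 in F4MKO + FSTL1. The log2 fold change was 0.20 ± 0.50 in F4MKO against Flox (adjusted p = 0.874) and -0.38 ± 0.52 in F4MKO + FSTL1 against F4MKO (adjusted p = 0.636). Each group thus held libraries both above and below the means of the others. The CPM of Gzma were 2.23, 0.492 and 0.666 in Flox, 0.318, 0.419 and 1.92 in F4MKO and 0.234, 0.913 and 2.82 in F4MKO + FSTL1. In every group 1 mouse was far above the other two, with 50, 48 and 54 reads in Flox mouse 1, F4MKO mouse 3 and F4MKO + FSTL1 mouse 3. Gzma had the widest intervals of the 9 genes, from -2.23 to 1.53 on the log2 scale in F4MKO against Flox and from -1.32 to 2.45 in F4MKO + FSTL1 against F4MKO. The CPM of Gzmb were 0.624, 1.39 and 0.843 in Flox, 1.27, 0.628 and 1.40 in F4MKO and 0.421, 0.433 and 1.10 in F4MKO + FSTL1. Its log2 fold change was -0.78 ± 0.46 in F4MKO + FSTL1 against F4MKO (adjusted p = 0.255) and 0.20 ± 0.43 in F4MKO against Flox (adjusted p = 0.847). The Flox mouse with the most Gzma reads had the fewest Gzmb reads of its group, and Gzma reads per Gzmb read ran from 0.250 in F4MKO mouse 1 to 3.57 in Flox mouse 1.

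A gene was called differentially expressed at a Benjamini-Hochberg adjusted p under 0.05 over all 14379 tested genes (edgeR's quasi-likelihood test) and a fold change above 1.5. In F4MKO against Flox, which asks what the loss of IRF4 in muscle changed in liver, 0 of the 8 tested genes were called, beside 0.271% of all tested genes, and 0 of the 8 had an unadjusted p under 0.05. DESeq2 called 0 of the 9, beside 1.41% of all genes. Of the 8, 6 were higher in F4MKO by their fitted value and 2 lower, with a median log2 fold change of 0.28 against 0.00 (-0.003) over all tested genes. The comparison of F4MKO + FSTL1 with F4MKO asks what FSTL1 made in muscle changed. Here 0 of the 8 were called by edgeR, beside 14.4% of all tested genes (11.2% lower and 3.21% higher). DESeq2 also called 0 of the 9, beside 8.86% of all genes. Cd3d and Cd8b1, 2 of the 8, had an unadjusted p under 0.05 in edgeR, as did 35.3% of all tested genes. By fitted value 7 were lower and 1, Gzma, was higher, with a median log2 fold change of -0.42 against 0.01 over all tested genes. When F4MKO + FSTL1 was set against Flox, 0 of the 8 were called by edgeR, beside 0.00695% of all tested genes, and 0 had an unadjusted p under 0.05. DESeq2 called 0 of the 9, beside 1.18% of all genes. The median log2 fold change was -0.13, with 3 genes higher and 5 lower. Among the 8 tested genes, groups that did not overlap were found for Cd3d in F4MKO against Flox (higher, as for 11.7% of all tested genes) and in F4MKO + FSTL1 against F4MKO (lower, 21.1%). Between F4MKO + FSTL1 and Flox they were found for Cd4 (higher, 7.44%) and Cd3d (lower, 10.7%). These comparisons share samples, so a high value in F4MKO enters the first and the second with opposite sign.

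**Figure D2:**
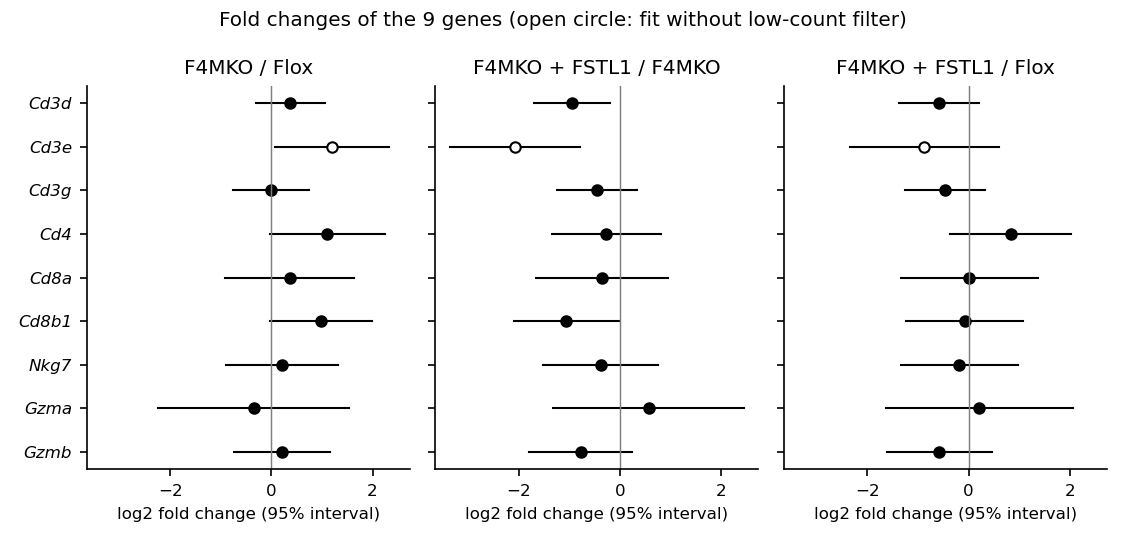
Log2 fold changes of the 9 genes (points) with their 95% intervals (lines) in the 3 comparisons, from the edgeR fit to all 9 libraries. Intervals of the filled points include 0 except those of Cd3d and Cd8b1 in F4MKO + FSTL1 against F4MKO. Cd3e, drawn open, comes from the fit without a filter on low counts and has the largest difference, -2.08.

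Over the 9 libraries, 32 of the 36 pairs of these genes had a positive correlation of log2 CPM, and 0 had a Benjamini-Hochberg adjusted p under 0.05 over the 36 pairs by Pearson's r or by Spearman's rho (exact two-sided permutation test). The highest was that of Cd8a with Nkg7 (r = 0.91, p = 0.00329, adjusted p = 0.0632, exact permutation test, n = 9). Its rho was 0.67 (p = 0.0589, exact permutation test), and r was 0.69 without the 2 libraries farthest from the median of Cd8a. Cd3g with Cd8a gave r = 0.87 (exact permutation p = 0.00530) and rho = 0.85 (exact permutation p = 0.00607), and r = 0.67 without 2 libraries. After the group means were removed r was 0.90 and 0.87 for these pairs over the 9 libraries. The genes did not vary together in every group. In F4MKO the log2 CPM of Cd8a were nearly equal (0.37, 0.38 and 0.32), while Nkg7 (1.02, 0.01 and 0.85) was lowest where Cd8a was highest. The spread was widest in F4MKO + FSTL1, with -2.14, -0.49 and 1.12 for Cd8a. There Nkg7 was at -1.27, 0.25 and 1.16 and Cd3g at -0.85, -0.23 and 0.31. Cd3d with Cd3e gave r = 0.83 (exact permutation p = 0.00569) and rho = 0.72 (exact permutation p = 0.0369), r = 0.68 without 2 libraries and r = 0.48 after the group means were removed. Gzma and Gzmb, made by the same kinds of cells, gave only r = 0.22 (exact permutation p = 0.557) and rho = 0.20 (exact permutation p = 0.613), and r = 0.31 without 2 libraries. The libraries share depth and composition effects, and counts of this size add counting error to every value.

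The mean of the z-scored log2 CPM of the 8 tested genes was 0.32, -0.16 and -0.17 in Flox, 0.88, -0.09 and 0.54 in F4MKO and -1.33, -0.69 and 0.71 in F4MKO + FSTL1. The genes outside the 9 whose log2 CPM followed it most closely over the 9 libraries were Ift81 (r = 0.96), Ecscr (0.96), Fbxl5 (0.95), 4833419F23Rik (0.95), Cav2 (0.94), Snhg15 (0.94), Mapre1 (0.94) and Tspyl2 (0.93). They are the most extreme of all tested genes over only 9 libraries, and the values are given as a description. None is a member of the T cell, cytotoxic or leukocyte lists used here.

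Other genes of T cells and cytotoxic lymphocytes had more calls than the 9, all of them in F4MKO + FSTL1 against F4MKO. In that comparison 14.4% of all tested genes were called, 11.2% lower and 3.21% higher. Of 16 genes of T cell receptor signalling and coreceptor function, 12 were listed in the table and 8 were tested, and the constant regions of the receptor itself (Trac, Trbc1, Trbc2 and Trdc) were not analysed here. In this list 1 gene rose, 0 fell and 7 were not called, with a median log2 fold change of -0.72. Zap70, the kinase recruited to phosphorylated CD3 chains, rose by a log2 fold change of 1.20 ± 0.24 (adjusted p = 0.00608). Its CPM were 3.25, 4.43 and 4.26 in Flox, 3.57, 2.76 and 2.63 in F4MKO and 9.39, 5.05 and 6.27 in F4MKO + FSTL1. Every library of the last group was above all others. Mouse 1 of that group had the most Zap70 reads, 201, and the fewest reads of the 3 CD3 genes together, 17, of the 9 libraries. Which cells the Zap70 reads came from was not tested. Thy1, a surface protein of mouse T cells also made by other cells, and Sh2d2a, a T cell adaptor, had log2 fold changes of -0.85 ± 0.32 (adjusted p = 0.0841) and -0.80 ± 0.34 (adjusted p = 0.113). Cd6, a surface coreceptor of T cells, gave -1.12 ± 0.57 (adjusted p = 0.183), and none of these 3 genes passed the threshold.

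Of 21 genes of T cell state and checkpoints 10 were tested, and 5 fell, 0 rose and 5 were not called, with a median log2 fold change of -1.02. By fitted value 8 of the 10 were lower and 2 higher, the highest at 0.38. Lag3 and Tox of this list, named after their values were seen, had higher means in F4MKO + FSTL1. Lag3 was at 0.90, 1.24 and 1.60 CPM in Flox, F4MKO and F4MKO + FSTL1, and Tox at 2.88, 3.56 and 4.62. Il2rb, a chain of the receptors for interleukins 2 and 15, had CPM of 1.92, 3.36 and 3.24 in Flox, 4.46, 3.35 and 3.19 in F4MKO and 1.03, 0.769 and 1.46 in F4MKO + FSTL1, and its log2 fold change was -1.76 ± 0.30 (adjusted p = 0.00304). Every F4MKO + FSTL1 library was below every other library. Il7r, a chain of the interleukin 7 receptor, changed by -1.87 ± 0.45 (adjusted p = 0.0139), Cxcr3, a chemokine receptor of effector T cells, by -1.70 ± 0.40 (adjusted p = 0.0121), and Ccr7, the homing receptor of naive and central memory T cells, by -1.22 ± 0.33 (adjusted p = 0.0256). The last of the 5, Tcf7, a transcription factor of T cells, is named after its value was seen (-0.61 ± 0.19, adjusted p = 0.0452). It had 79 to 217 reads a library, against 17 to 72 for the 3 CD3 genes together. Which cells the Tcf7 reads came from was not tested. Ctla4 had 3 counts or fewer in every library. Of 19 genes of cytotoxic effectors and NK cell receptors 6 were tested, and 3 fell, 0 rose and 3 were not called, with a median log2 fold change of -1.22. Klrd1, the CD94 receptor chain of NK cells, had CPM of 0.357, 0.451 and 0.754 in Flox, 1.38, 1.21 and 1.08 in F4MKO and 0.514, 0.288 and 0.209 in F4MKO + FSTL1, and its log2 fold change was -1.83 ± 0.38 (adjusted p = 0.00755). F4MKO libraries were above all others, and Flox and F4MKO + FSTL1 overlapped. Klrk1, the activating NKG2D receptor, changed by -1.30 ± 0.29 (adjusted p = 0.0109) and Ctsw, a cathepsin of cytotoxic cells, by -1.05 ± 0.30 (adjusted p = 0.0279), while Klrb1c, the NK1.1 antigen, gave -1.45 ± 0.50 (adjusted p = 0.0623). Klrg1 had 3 counts or fewer in every library.

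In F4MKO against Flox and in F4MKO + FSTL1 against Flox edgeR called 0 genes of these 3 lists. In F4MKO against Flox the unadjusted p was under 0.05 for 0 genes of the signalling list, 1 of the state list and 1 of the cytotoxic list, and their median log2 fold changes were 0.29, 0.37 and 0.58. Against Flox, F4MKO + FSTL1 had it under 0.05 for 1, 6 and 1 genes, and the medians were -0.24, -0.49 and -0.58. There DESeq2 called 1 gene of the state list and 0 of the other lists, and in F4MKO against Flox it called 0 of all 3. Of the 9 genes called in F4MKO + FSTL1 against F4MKO, Zap70, Il2rb and Klrd1 were called in all 16 alternatives. The other 6 lost the call when a library was left out, Klrk1 only without F4MKO + FSTL1 mouse 2, Cxcr3 and Il7r without that mouse or F4MKO mouse 1, and Ccr7, Ctsw and Tcf7 without any of 4, 4 and 6 libraries.

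**Figure D3:**
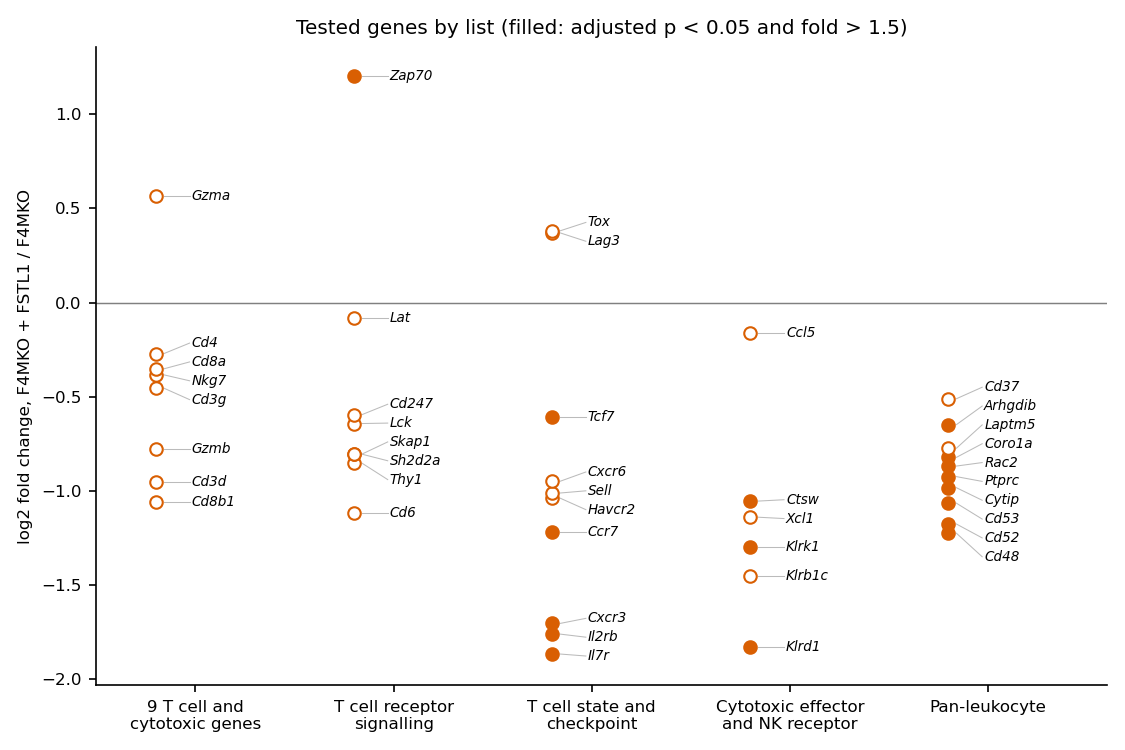
Log2 fold changes in F4MKO + FSTL1 against F4MKO of every tested gene of the 9, of the 3 companion lists and of 10 pan-leukocyte genes, with 1 point per gene and filled points for called genes. None of the 8 tested genes of the 9 is filled, whereas 1 of 8, 5 of 10, 3 of 6 and 8 of 10 are filled in the other columns, and Zap70 is the only filled point above 0. Of all tested genes 14.4% were called.

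Markers of leukocytes as a whole differed in the same comparison. The summed CPM of 10 pan-leukocyte genes, Ptprc among them, ran from 104 to 130 in Flox, from 123 to 168 in F4MKO and from 62.1 to 96.1 in F4MKO + FSTL1, with no overlap between F4MKO + FSTL1 and the others. Of these genes 8 of 10 fell in F4MKO + FSTL1 against F4MKO, with 6 of 10 macrophage, 3 of 7 dendritic cell, 1 of 4 neutrophil and 0 of 7 B cell genes that were tested, and none of these lists had a call in the other comparisons. Over all tested genes 11.2% were called lower and 3.21% higher in F4MKO + FSTL1 against F4MKO. Macrophage genes summed to between 585 and 881 CPM in Flox, 679 and 717 in F4MKO and 353 and 549 in F4MKO + FSTL1. Dendritic cell genes summed to between 17.2 and 19.7, 22.6 and 37.7, and 13.6 and 17.9 CPM in Flox, F4MKO and F4MKO + FSTL1. The ranges were 8.39 to 9.36, 10.8 to 15.7 and 5.09 to 8.10 CPM for neutrophil genes, of which Ly6g was at 3 counts or fewer in every library, and 8.20 to 9.85, 4.77 to 11.6 and 3.74 to 8.83 CPM for B cell genes. Outside the leukocytes, 5 of 8 stellate cell, 4 of 5 cholangiocyte and 9 of 9 proliferation genes fell in F4MKO + FSTL1 against F4MKO, while 1 of 9 hepatocyte genes rose and 0 of 8 endothelial genes were called. Cholangiocyte genes summed to between 160 and 430 CPM in F4MKO and between 36.1 and 88.9 in the 6 other libraries, and 2 of the 5 rose in F4MKO against Flox. Those calls were lost without F4MKO mouse 1 or without any of the 3 Flox mice, when 0 genes in all were called in that comparison. Proliferation genes summed to between 15.9 and 29.9 CPM in Flox, 35.0 and 45.2 in F4MKO and 5.43 and 9.71 in F4MKO + FSTL1. Against Flox, 9 of the 9 tested were lower in F4MKO + FSTL1 without overlap (10.7% of all tested genes), and 1 was called (0.00695%). The part of these markers in the differences of lymphocyte genes was not tested.

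**Figure D4:**
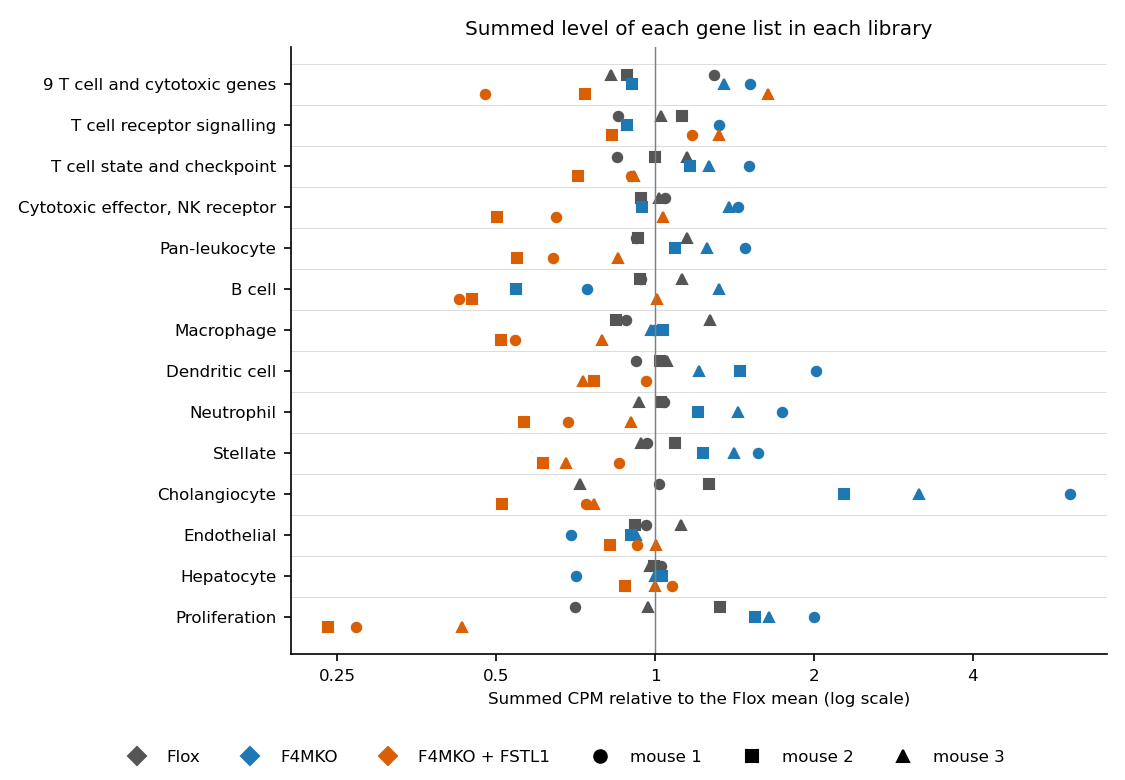
Summed CPM of each gene list in each library, divided by the mean of the Flox libraries and drawn on a log axis, with colour for the group and shape for the mouse. The 9 T cell and cytotoxic genes spread over the widest range within F4MKO + FSTL1, where mouse 3 lies above all Flox and F4MKO libraries, while pan-leukocyte genes of that group all lie below 1.

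Counts of the 9 genes were also taken per 1000 counts of the 10 pan-leukocyte genes. This gives their level relative to those 10 genes, and which leukocytes made the RNA of the 10 was not tested. Cd3d per 1000 was 3.85, 3.91 and 3.41 in Flox, 3.58, 4.07 and 3.65 in F4MKO and 3.22, 3.87 and 3.80 in F4MKO + FSTL1. It thus ran from 3.22 to 4.07 in all 9 libraries and overlapped between groups, in contrast to its CPM. Cd4 per 1000 was 4.70, 5.86 and 4.10 in Flox, 13.9, 4.41 and 4.21 in F4MKO and 14.8, 14.7 and 9.78 in F4MKO + FSTL1. It was above 9 in each F4MKO + FSTL1 library and in F4MKO mouse 1 and below 6 in the other 5 libraries. The pan-leukocyte counts themselves were 1292 to 1840 in F4MKO + FSTL1, 2340 to 2930 in Flox and 2946 to 4742 in F4MKO. A gene of equal CPM would therefore stand higher in F4MKO + FSTL1 on this scale. The share of all genes whose groups were separated on this scale was not taken. Cd8a per 1000 was 12.0, 7.42 and 5.80 in Flox, 7.17, 9.84 and 8.15 in F4MKO and 1.93, 10.1 and 21.7 in F4MKO + FSTL1, and Gzma ran from 1.90 in F4MKO mouse 1 to 29.3 in F4MKO + FSTL1 mouse 3. Cd3e per 1000 was 1.71, 3.52 and 0.683 in Flox, 3.80, 4.07 and 2.53 in F4MKO and 1.29, 0.774 and 2.17 in F4MKO + FSTL1. Unlike Cd3d it stayed lower in every F4MKO + FSTL1 library than in every F4MKO library, on 1 to 4 reads a library, and Flox overlapped with both. Cd3g ran from 5.90 to 13.7, Gzmb from 5.09 to 13.3, Cd8b1 from 2.32 to 7.61 and Nkg7 from 4.51 to 22.3, with overlap between all groups for these 4 genes.

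**Figure D5:**
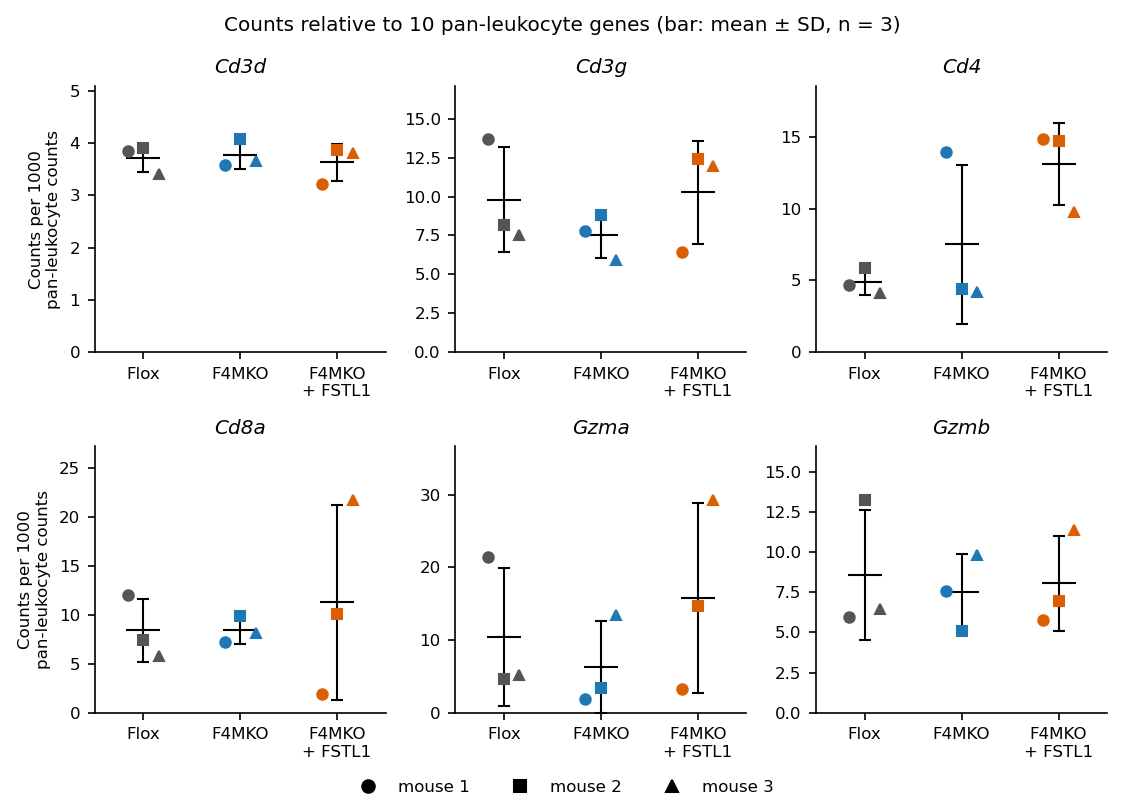
Counts of 6 of the genes per 1000 counts of 10 pan-leukocyte genes (linear axis from 0), with 1 point per mouse and a bar for the group mean ± SD (n = 3), drawn down to 0 at most. Cd3d lies between 3.22 and 4.07 in all libraries, Cd4 is higher in each F4MKO + FSTL1 library than in each Flox library, and Cd8a and Gzma spread most within F4MKO + FSTL1.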

How the data were processed

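Liver RNA of 9 mice was sequenced with 1 library per mouse, as 3 Flox, 3 F4MKO and 3 F4MKO + FSTL1 samples. The authors trimmed paired reads with Trim Galore 0.6.7, mapped them to mm10 with HISAT2 2.2.1 and counted them on genes with featureCounts 2.0.1, as named in the submitters' processing notes, and deposited raw counts. The annotation, strand setting and handling of multi-mapping reads are not given in the sources used here.

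Counts were analysed with edgeR 4.0.16 in R 4.3.3. The filterByExpr function (minimum count 10, minimum total 15) kept 14379 of 24008 genes. Libraries were scaled by TMM (factors 0.927 to 1.17), and a quasi-likelihood model with a mean per group was fitted to all 9 libraries (common biological coefficient of variation 0.150). The thresholds were those of the study, an adjusted p under 0.05 and a fold change above 1.5. CPM are TMM-scaled, log2 CPM used a prior count of 2, and SE are those of log2 fold changes. The fit was also run on simulated counts, whose outcome is not reported here and is not used as support.

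The genes, lists and tests were chosen with earlier results of these data known. All 9 genes are named, with the 4 lowest p-values of each companion list in F4MKO + FSTL1 against F4MKO, any companion gene called in the other comparisons (none was), and the 8 genes most correlated with the mean z-score. An item of a companion list is not reported here. Gene positions are those of GENCODE vM21. Alternatives were DESeq2 1.42.0, its size factors, library totals, no filter, the 6 libraries compared, no fold threshold, a replicate block and leaving out each library. Correlations used Python 3.11.15 with numpy 2.4.6.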

Additional observations from a re-analysis of the deposited data

How the results depend on the processing

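Of 430 alternative values of the 9 genes in the 3 comparisons (27 pairs of gene and comparison), 397 kept their direction and their side of the threshold, 26 reversed, 3 were newly called and 4 lost the call, all of these for Cd3e in F4MKO + FSTL1 against F4MKO. In F4MKO + FSTL1 against F4MKO, 1 of the 8 genes that passed the filter was called with library totals (Cd3d), beside 17.4% of all genes. Without a low-count filter 1 of the 9 was called (Cd3e), beside 9.98%. Leaving out a library gave 0 to 3, beside 8.83% to 15.2%. In those fits the smaller group lets Cd3e pass the filter, and it made each of the 5 counts above 0, alone in 4 of them. The calls ranged from 1 to 3 in the signalling list, 1 to 5 in the state list and 1 to 4 in the cytotoxic list when a library was left out, and the signalling list, with 1 call, had 2 with library totals and 2 without the filter. Without the filter 1 gene of the state list was called in F4MKO against Flox and 1 in F4MKO + FSTL1 against Flox, and DESeq2 called 1 in the latter. Reversed values with all libraries were small. Cd3g in F4MKO against Flox was 0.12 with library totals and 0.0078 with the 6 libraries, and Cd8a in F4MKO + FSTL1 against Flox was -0.067 with library totals. Library totals moved the median of all genes to 0.11, -0.18 and -0.08 in the 3 comparisons.

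Ranges with a library left out that include a reversed value were, in F4MKO against Flox, -0.17 to 0.24 for Cd3g, -1.60 to 0.60 for Gzma, -0.024 to 0.58 for Gzmb and -0.0088 to 0.55 for Nkg7. In F4MKO + FSTL1 against F4MKO they were -0.60 to 0.76 for Cd4, -1.63 to 0.18 for Cd8a, -0.61 to 1.82 for Gzma and -1.09 to 0.076 for Nkg7. In F4MKO + FSTL1 against Flox they were -1.27 to 0.54 for Cd8a, -0.72 to 0.33 for Cd8b1, -0.96 to 1.17 for Gzma and -0.89 to 0.28 for Nkg7. The cause was not tested.

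Counts of all genes called depended on the filter, the fit and single libraries. F4MKO against Flox had 39 calls, 478 without the filter, 338 with DESeq2, 11 with the 6 libraries, 59 with library totals and 134 with the replicate block. F4MKO + FSTL1 against Flox had 1, 379, 284, 0, 2 and 15. The count in F4MKO against Flox was 0 without F4MKO mouse 1 or any Flox mouse, 19 without F4MKO + FSTL1 mouse 3, 23 without mouse 2 of that group, 24 without mouse 1 and 100 without F4MKO mouse 3. Against Flox, F4MKO + FSTL1 had 0 to 101 calls, the highest without its mouse 3, and against F4MKO it had 1295 without its mouse 2 and 1335 without F4MKO mouse 1, in place of 2070. Same-numbered libraries correlated in their deviations from group means at -0.10 to 0.30, and 5 of 9 libraries correlated best with their own number, so the numbers were not taken to pair mice. With the replicate block 0 of the 8 tested genes were called in all 3 comparisons, a count that leaves out Cd3e, which did not pass the filter. In F4MKO + FSTL1 against Flox, Cd8a was then -0.13 and Gzma -0.055. Depth limits every value, since most counts of these genes were under 50 reads.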
